A study of Mus musculus with 3 samples.

Results

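The genes described here are 10 members of the Hippo pathway: the coactivator genes Yap1 (YAP) and Wwtr1 (TAZ), the transcription factor genes Tead1, Tead2, Tead3 and Tead4, the kinase genes Lats1 and Lats2, and the angiomotin-like genes Amotl1 and Amotl2. They were chosen by name, with earlier results of these data known. For each, the probe sets annotated to that symbol alone were taken, and where there were several, the probe set with the highest mean log2 intensity over the arrays stood for the gene. All 10 were measured, among 19938 genes in all. Expression was read on 3 single-colour Affymetrix arrays of mouse bone marrow stroma at baseline, from tibia, femur and pelvis. On 2 arrays were CAR cells, reticular cells with abundant CXCL12, sorted from 2 CXCL12-GFP knock-in mice and labelled as replicates. The third array held cells sorted as PDGFRa+ Sca+ CD45- lineage-, here PaS, and combined from 3 mice of the genotype Prx1-Cre Rosa26Ai9/+ Cxcl12gfp/+. Mice of both groups carried a GFP allele at Cxcl12; the Prx1-Cre transgene, whose promoter is active in limb mesenchyme, and the Rosa26 reporter were carried by the PaS mice alone. Cell type and genotype thus differ between the same arrays and cannot be told apart. Ages are not given in the labels used here, and the PaS side is a single pooled array.

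In the Hippo pathway a cascade of kinases ends in LATS1 and LATS2, which phosphorylate YAP and TAZ and keep them out of the nucleus. When the kinases are inactive, as in cells spread on a stiff matrix, YAP and TAZ enter the nucleus, bind the TEAD proteins on DNA and switch on target genes. Angiomotin-like proteins bind YAP at cell junctions and on actin. In mesenchymal cells YAP and TAZ are best known for relaying mechanical cues in the choice between bone and fat. Their activity is set largely by phosphorylation and location of the protein, which arrays of RNA do not measure.

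Most markers of blood cells, which the PaS gate should exclude, were higher on the array labelled PaS than on the CAR arrays. Most stromal markers were lower there, among them Pdgfra, which encodes a protein of that gate. Ptprc, which encodes CD45, stood at log2 intensities of 5.11 and 5.01 on the CAR arrays and 8.27 on the array labelled PaS, while Pdgfra stood at 7.52, 7.97 and 4.33 and Cxcl12 at 10.94, 11.11 and 7.76. Ly6a, which encodes Sca-1, was not analysed here. Over all genes 8.56% were called higher in CAR cells and 6.42% lower. Of 15 leukocyte markers 11 were lower in CAR cells and 0 higher (limma, adjusted p under 0.05 over all genes; likewise 0 of 14 neutrophil markers were higher, and 10 lower), and the summed intensity of the leukocyte markers was 481 and 576 on the CAR arrays against 3334. Of 10 endothelial markers 3 were lower, with sums of 120 and 99.6 against 298, and of 8 erythroid markers measured 1 was lower, with sums of 91.6 and 271 against 561; 1 of 8 is not far from the share of all genes. Car1, which was not called, alone gave 8.22 and 165 of the erythroid sums on CAR arrays 1 and 2, and 391 on the array labelled PaS. The neutrophil sums were 3531 and 3135 against 18534. Of 11 measured markers of stroma and of the sorts 8 were higher and 2 lower in CAR cells, with sums of 5254 and 5973 against 686. The 2 lower were Thy1, at 3.56 and 3.69 against 7.67, and Cd34, at 2.53 and 2.23 against 4.73. No marker was listed at 0, and the lowest intensity among them was 4.68. The part of these other cells in the differences below was not tested. In such bulk samples, fewer cells of a type and less RNA per cell cannot be told apart.

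Of the 10 genes, 6 were called higher in CAR cells: Tead1, Tead3, Amotl1, Lats2, Amotl2 and Yap1 (limma, adjusted p under 0.05 over all genes). The share of all genes called higher was 8.56%. No member was called lower, against 6.42% of all genes. At an unadjusted p under 0.05 the counts were 8 higher and 0 lower, against 17.1% and 18% of all genes. Both CAR arrays lay above the array labelled PaS for 9 members, as for 37.4% of all genes, and both lay below it for Tead2, as for 46.8% of all genes. At least 2-fold higher in both CAR arrays were 7 members, against 10.9% of all genes. The median log2 difference of the members was 1.74, against -0.10 over all genes tested. All 10 members were kept when genes dimmer than the median were left out, and the background was then higher. Of 9969 genes 2062 were called higher and 510 lower, against 7 and 0 members. At an unadjusted p under 0.05 these genes were 30.6% higher and 8.49% lower, against 8 and 0 members. Their median log2 difference was 0.37, and that of the members stayed at 1.74. No call among the 10 members, and none among all genes, was left when 16 intensity units were added to every value before the logarithm.

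**Figure D1:**
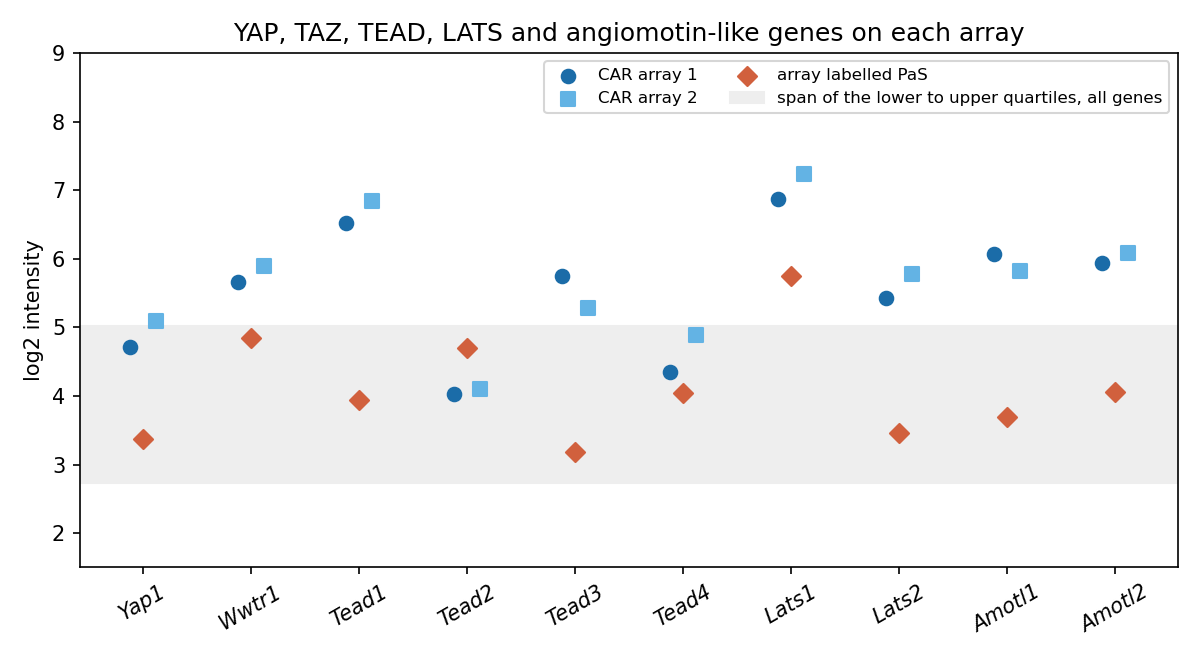
Log2 intensity of the 10 genes on CAR array 1 (circles), CAR array 2 (squares) and the array labelled PaS (diamonds); the grey band spans the lowest lower quartile to the highest upper quartile of all genes over the arrays. The diamond lies below both CAR symbols for each gene except Tead2, where it lies above them. Levels of different genes come from different probes and have no order.

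The coactivators came first. Yap1 stood at a log2 intensity of 4.72 on CAR array 1, 5.09 on CAR array 2 and 3.38 on the array labelled PaS. Both CAR arrays lay above the array labelled PaS, whose value was below the median of all its genes, 3.77, so the size of the fold is uncertain. The difference was 2.88-fold (log2 difference 1.52 ± 0.31, SE; limma adjusted p = 0.0388). Wwtr1, which encodes TAZ, stood at 5.67 and 5.90 on the CAR arrays and at 4.84 on the array labelled PaS. The arrays lay in the same order, but the log2 difference of 0.94 ± 0.29 (SE) did not pass the threshold (limma adjusted p = 0.0871), with a 95% interval of 0.20 to 1.69. Within each array, the log2 ratio of the Yap1 to the Wwtr1 probe set was -0.95 and -0.82 in CAR cells and -1.46 on the array labelled PaS, a shift of 0.58 (1.15 after quantile normalization, 0.13 with 16 units added). This shift was not tested, and its size depended on the scaling.

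The TEAD genes, whose proteins hold YAP and TAZ on DNA, were called for some paralogues and not for others. Tead1 stood at 6.53 and 6.84 on the CAR arrays and at 3.94 on the array labelled PaS. It had the largest difference of the 10 genes, 6.72-fold (log2 difference 2.75 ± 0.30, SE; limma adjusted p = 0.0140). A second Tead1 probe set, not used in the fit, read 6.54, 7.27 and 3.23, a log2 difference of 3.67 in the same direction. Tead3 stood at 5.75 and 5.28 on the CAR arrays and at 3.19 on the array labelled PaS, close to the lower quartile of 3.16 there. It rose 5.02-fold in CAR cells (log2 difference 2.33 ± 0.33, SE; limma adjusted p = 0.0216), again against a dim value.

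Tead4 and Tead2 did not pass. Tead4 stood at 4.35 and 4.89 on the CAR arrays and at 4.04 on the array labelled PaS. The log2 difference was 0.58, with a 95% interval of -0.30 to 1.46 (limma adjusted p = 0.291). The CAR arrays differed from each other by nearly as much as their mean differed from the third array. Tead2 stood at 4.03 and 4.10 on the CAR arrays and at 4.70 on the array labelled PaS. It was the only member with the PaS value on top, with a log2 difference of -0.64 and a 95% interval of -1.35 to 0.07 (limma adjusted p = 0.174). After quantile normalization the difference was -0.98 and passed (limma adjusted p = 0.0279).

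Among ratios of TEAD paralogues, that of Tead1 to Tead2 had the largest shift; a factor common to all genes of an array cancels in it. Its log2 value was 2.50 and 2.74 on the CAR arrays and -0.77 on the array labelled PaS, a shift of 3.39 or 10.4-fold. The Tead2 to Tead3 ratio ran the other way, at -1.72 and -1.18 against 1.52, and the Tead1 to Tead4 ratio was 2.18 and 1.95 against -0.10. By contrast the Tead1 to Tead3 ratio, 0.78 and 1.56 against 0.75, shifted by 0.42, less than the 0.56 of its SD (n = 2) over the CAR arrays. These shifts were not tested: an exact permutation test over 3 arrays cannot go below p = 0.333. The sign of a ratio on a single array compares different probes and carries no order of transcript levels.

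**Figure D2:**
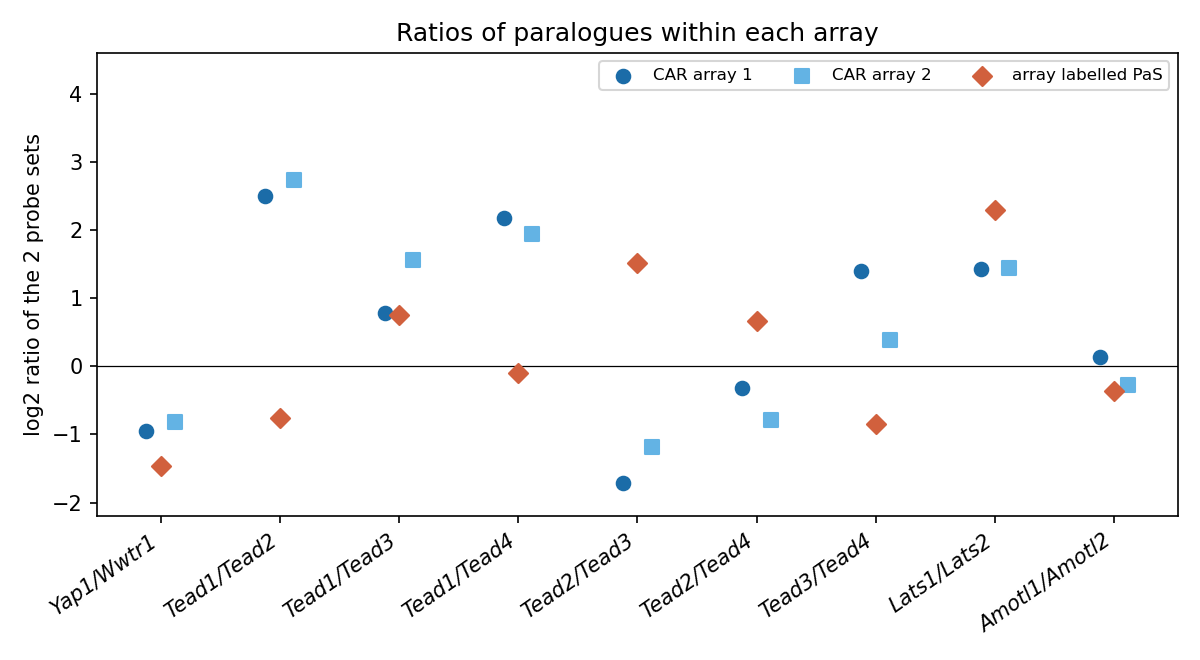
Log2 ratio of the probe sets of each paralogue pair on CAR array 1 (circles), CAR array 2 (squares) and the array labelled PaS (diamonds). The Tead1 to Tead2 ratio lies at 2.50 and 2.74 in CAR cells against -0.77, whereas for Tead1 to Tead3 and for Amotl1 to Amotl2 the array labelled PaS lies next to a CAR array.

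Among the inhibitory kinases, Lats2 stood at 5.44 and 5.78 on the CAR arrays and at 3.46 on the array labelled PaS. CAR cells exceeded that value 4.44-fold (log2 difference 2.15 ± 0.31, SE; limma adjusted p = 0.0217). Lats2 is itself a known target gene of YAP, through which the pathway restrains itself. Lats1 stood at 6.87 and 7.23 on the CAR arrays and at 5.75 on the array labelled PaS. Its log2 difference of 1.30 ± 0.31 (SE) just missed the threshold (limma adjusted p = 0.0516), with a 95% interval of 0.51 to 2.09. It passed after each array was centred on its median (limma adjusted p = 0.0258). It also passed once genes dimmer than the median were left out (0.0350) and with a robust prior in limma (0.0353). It did not pass after quantile normalization, where the difference was 0.68 (0.0926), or with the mean of a gene's probe sets (0.0520). Nor did it pass with an intensity trend in limma (0.0645) or with 16 units added (0.104). The Lats1 to Lats2 ratio was 1.43 and 1.45 on the CAR arrays and 2.29 on the array labelled PaS. This shift of -0.85 was not tested, and with 16 units added to each value it was -0.18.

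The angiomotin-like genes rose together. Amotl1 stood at 6.07 and 5.82 on the CAR arrays and at 3.70 on the array labelled PaS. The difference was 4.74-fold (log2 difference 2.24 ± 0.29, SE; limma adjusted p = 0.0189). Amotl2, also a known YAP target, stood at 5.93 and 6.09 on the CAR arrays and at 4.06 on the array labelled PaS. CAR cells lay 3.87-fold above it (log2 difference 1.95 ± 0.28, SE; limma adjusted p = 0.0222). Their ratio shifted by 0.29, about the 0.29 of its SD (n = 2) over the CAR arrays.

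**Figure D3:**
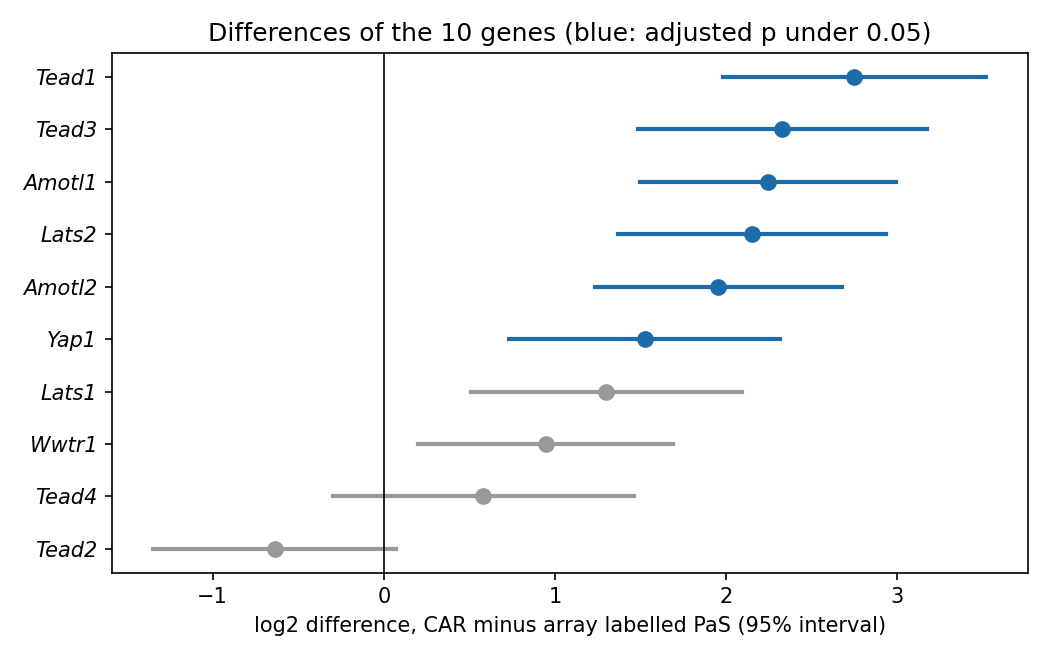
Log2 difference of each of the 10 genes, mean of the CAR arrays minus the array labelled PaS, with the 95% interval of limma's moderated test; blue marks adjusted p under 0.05 over all genes. The 6 blue genes run from 1.52 for Yap1 to 2.75 for Tead1; the intervals of Tead4 and Tead2 include 0.

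TEAD proteins bind the letters GGAATG, and the promoters of several members hold them. In the RefSeq promoter table (GRCm38.p6, 250 bases before to 50 after each start), 14.7% of 32851 promoters held GGAATG or its reverse complement CATTCC, and 16.6% of 27025 genes did so at any listed start. Of the 10 members 8 had an entry, and 5 of these held the letters: Yap1, Wwtr1, Tead3, Lats2 and Amotl2. The copy of Lats2 began 4 bases past a listed start, and its other listed start held none. Tead2, Lats1 and Amotl1 had an entry without the letters, though Amotl1 was called higher in CAR cells. Of 14 target genes with an entry 4 held the letters: Ccn1, Crim1, Ankrd1 and Axl. The 250 bases before the start are shown for 3 members that were higher in CAR cells and for Ccn1 and Ankrd1, a pair of textbook YAP targets that came out differently here. Each is printed 5′ to 3′ on the gene's strand, with the motif letters in capitals.
Yap1, chr9:8004597-8004846, minus strand: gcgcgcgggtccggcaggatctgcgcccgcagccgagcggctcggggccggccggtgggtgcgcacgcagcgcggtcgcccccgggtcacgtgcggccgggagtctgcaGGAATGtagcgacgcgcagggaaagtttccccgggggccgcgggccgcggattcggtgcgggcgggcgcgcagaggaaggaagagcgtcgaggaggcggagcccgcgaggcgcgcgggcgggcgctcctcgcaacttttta
Tead3, chr17:28350601-28350850, minus strand: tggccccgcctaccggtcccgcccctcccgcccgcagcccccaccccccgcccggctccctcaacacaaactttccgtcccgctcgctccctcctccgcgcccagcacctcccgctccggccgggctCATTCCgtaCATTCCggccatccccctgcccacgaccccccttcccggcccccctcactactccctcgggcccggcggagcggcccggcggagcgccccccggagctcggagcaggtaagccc
Amotl2, chr9:102717554-102717803, plus strand: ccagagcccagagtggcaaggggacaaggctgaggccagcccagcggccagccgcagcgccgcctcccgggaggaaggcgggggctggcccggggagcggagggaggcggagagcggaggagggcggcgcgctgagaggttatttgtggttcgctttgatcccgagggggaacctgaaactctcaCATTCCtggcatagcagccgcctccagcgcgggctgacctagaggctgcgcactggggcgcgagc
Ccn1, chr3:145649986-145650235, minus strand: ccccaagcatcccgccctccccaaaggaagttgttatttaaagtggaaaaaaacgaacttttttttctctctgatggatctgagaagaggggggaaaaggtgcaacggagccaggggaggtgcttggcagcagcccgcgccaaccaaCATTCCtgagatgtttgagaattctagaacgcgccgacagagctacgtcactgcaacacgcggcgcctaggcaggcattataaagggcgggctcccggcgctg
Ankrd1, chr19:36119845-36120094, minus strand: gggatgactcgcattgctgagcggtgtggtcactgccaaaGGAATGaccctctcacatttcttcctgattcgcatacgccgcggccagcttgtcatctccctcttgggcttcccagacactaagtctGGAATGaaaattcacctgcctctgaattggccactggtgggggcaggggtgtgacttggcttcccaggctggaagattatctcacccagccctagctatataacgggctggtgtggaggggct
The motif began 141 bases before the start of Yap1, 65 before that of Amotl2 and 103 before that of Ccn1. The Tead3 start shown, 1 of 3 listed, had copies at 123 and 114 bases and a further copy beginning 2 bases past the start, outside the bases shown. Of the other Tead3 starts, one had a copy at 182 bases and one had none. Ankrd1 had copies at 210 and 123 bases; no copies overlapped. A match of letters is a description of the sequence and does not show binding.

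Target genes of YAP and TAZ did not move in a single direction. Of 24 measured genes of a list of 26, 8 passed limma's test as higher in CAR cells and 3 as lower, which is 33.3% and 12.5% beside 8.56% and 6.42% of all genes. Their median log2 difference was -0.004, against -0.10 over all genes tested. That median depended on dim genes: once genes dimmer than the median were left out, it was 1.40, against 0.37 over all genes kept. The matrix-associated signalling proteins Ccn2 and Ccn1, the most used reporters of YAP activity, were both higher. Ccn2 stood at 8.95 and 8.54 on the CAR arrays and at 6.28 on the array labelled PaS (5.51-fold; limma adjusted p = 0.0187). Ccn1 stood at 9.28 and 9.41 against 7.48 (3.63-fold; limma adjusted p = 0.0234), with CAR arrays that differed little. Ankrd1, a muscle-type cofactor and the other common reporter, stood at 2.52 and 2.16 against 3.08 (log2 difference -0.73, limma adjusted p = 0.163), below the median of all genes on each array.

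Other target genes with large differences toward CAR cells were Igfbp3, a carrier of insulin-like growth factors (log2 difference 5.62 ± 0.53, SE), Rbms3, an RNA-binding protein (3.31 ± 0.28), Arhgef17 (3.08 ± 0.28), and Crim1, a membrane protein that binds BMPs (2.27 ± 0.29). The values of Igfbp3 and Arhgef17 on the array labelled PaS, 3.65 and 3.29, lay below its median, and with 16 units added their differences were 4.48 and 1.94. The limma adjusted p of these 4 genes lay between 0.0107 and 0.0182. For Igfbp3 the CAR arrays lay apart, at 8.68 and 9.88, with 3.65 on the array labelled PaS. In the other direction Birc5, the mitotic protein survivin, was 3.17-fold lower in CAR cells (limma adjusted p = 0.0297). Dock5, an exchange factor for Rac, was 2.40-fold lower (limma adjusted p = 0.0441). Gadd45a, a growth arrest and DNA damage gene, was likewise 2.40-fold lower (limma adjusted p = 0.0466, or 0.0599 with an intensity trend). The CAR values of Birc5, 2.97 and 3.21, and of Dock5, 3.37 and 3.40, lay below the medians of those arrays, 3.74 and 3.75. The size of these folds is thus uncertain, and with 16 units added the log2 differences were -0.81 and -0.64.

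Upstream regulators leaned toward CAR cells. Of 39 measured genes of a list of 42, 11 were higher and 0 lower (limma, adjusted p under 0.05). Those called higher were 28.2%, beside 8.56% of all genes, while 6.42% of all genes were called lower. At an unadjusted p under 0.05, 20 were higher and 1 lower, beside 17.1% and 18% of all genes. The median log2 difference of the regulators was 0.75, against -0.10 over all genes tested, or 0.38 after quantile normalization. With genes dimmer than the median left out, it was 0.83, against 0.37 over all genes kept. Dlg5, a polarity scaffold, stood at 8.29 and 8.24 on the CAR arrays and at 3.57 on the array labelled PaS (25.9-fold; limma adjusted p = 0.00810). That value too lay below the median there, so the fold is uncertain: with 16 units added the log2 difference was 3.54 instead of 4.69. The giant atypical cadherins Fat1 and Fat4 were 10.2-fold and 4.23-fold higher (limma adjusted p = 0.0113 and 0.0271). Frmd6, a FERM domain protein of the cell cortex, was 5.13-fold higher, and Ptpn14, a phosphatase that binds YAP, 5.96-fold (limma adjusted p = 0.0227 and 0.0137). Vgll4, which competes with YAP for TEAD proteins, stood at 6.42 and 6.70 against 4.19 and was 5.18-fold higher (limma adjusted p = 0.0178).

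Genes that act above LATS or together with it were less uniform. Taok1, a kinase that activates the MST kinases, and Nf2, which encodes merlin, were higher in CAR cells, with log2 differences of 1.75 ± 0.28 and 1.37 ± 0.30 (SE; limma adjusted p = 0.0256 and 0.0429). Sav1, the MST scaffold, and the LATS cofactors Mob1b and Mob1a had log2 differences of 0.75, 0.60 and 0.21, which did not pass (limma adjusted p = 0.142, 0.252 and 0.651). Taok2, Taok3 and Map4k4, further kinases of the list, had log2 differences of 0.84, -0.59 and 1.18, which did not pass. Stk4, the kinase MST1, stood at 4.83 and 4.76 on the CAR arrays and at 5.96 on the array labelled PaS. Its log2 difference of -1.17 ± 0.28 (SE) missed the threshold (limma adjusted p = 0.0518) and passed under 4 of 7 other settings, with -1.71 after quantile normalization (adjusted p = 0.00448).

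**Figure D4:**
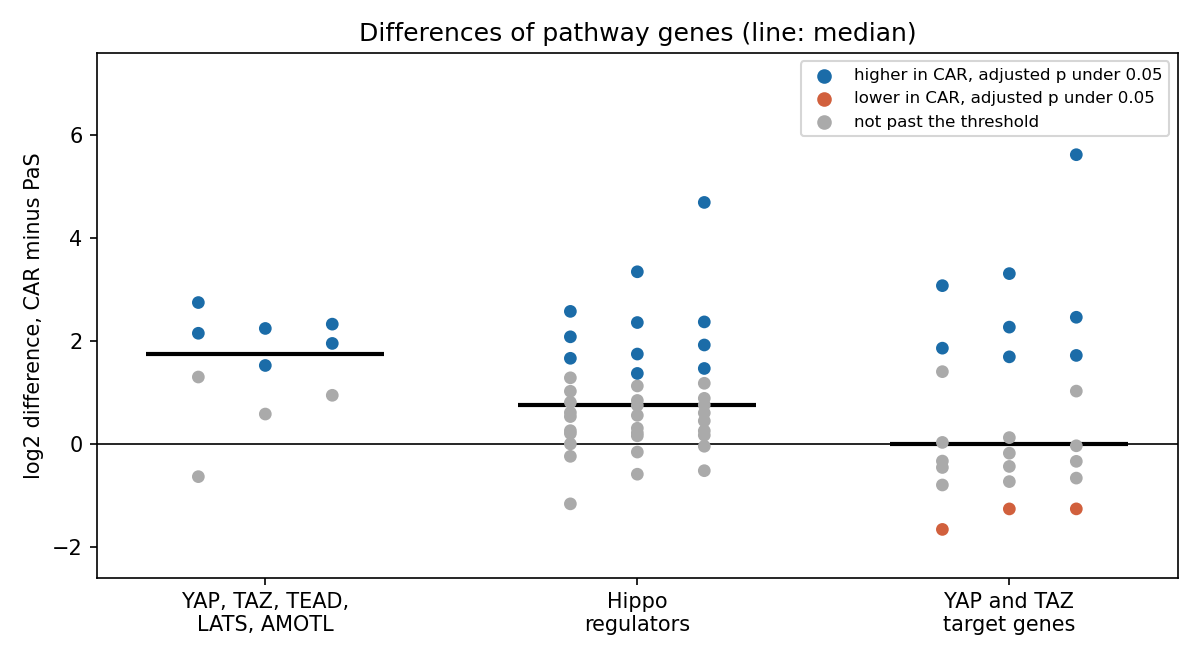
Log2 difference, mean of the CAR arrays minus the array labelled PaS, for each measured gene of the 10 members and of the lists of regulators and target genes; black lines are medians, at 1.74, 0.75 and -0.004. Blue and orange points passed limma's test over all genes as higher and lower in CAR cells; sideways position within a column carries no meaning.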

How the data were processed

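Gene expression of 3 samples was measured on single-colour Affymetrix arrays with amplified, biotin-labelled cDNA, per the labels' protocols. The deposited values are linear intensities, 1 for each probe set, made with Affymetrix Expression Console and RMA (background correction, quantile normalization of probes, summary), per the submitters' processing notes; neither versions nor a genome build are given in the sources used here. The number of arrays limits the precision.

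Of 35556 probe sets, 21789 carried 1 symbol in the platform annotation used here, 1621 several (not used) and 12146 none; gene identifiers of 21698 matched the current gene table. Intensities were log2-transformed without a pseudocount, and the probe set with the highest mean stood for a gene. CAR was compared with PaS over 19938 genes with limma 3.58.1 in R 4.3.3 (lmFit, eBayes, no covariate, two-sided), adjusted by Benjamini-Hochberg with a threshold of 0.05. The fit has 1 residual degree of freedom and 4.20 prior ones around a prior SD of 0.25 log2 units, so the spread is that of the CAR arrays, and the same spread is assumed for PaS. P-values thus rest on that prior and on the spread between the 2 CAR arrays, labelled as replicates of 2 mice. They hold no spread between PaS samples. The script was tested on simulated data.

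The members, the lists, the tests and the alternatives were chosen with earlier results of these data known. Named are the 10 members, Ptprc, Pdgfra and Cxcl12, and of each list up to 6 genes per direction with the largest difference among called genes whose CAR values both lie on the same side of the PaS value. Thy1, Cd34, Ankrd1, Axl, Taok1, Nf2, Sav1, Mob1a, Mob1b and Stk4 are named outside this rule, after their values were seen. So are Taok2, Taok3, Map4k4 and Car1, which are not among the 28 other named genes followed through the alternatives. Without detection calls, low intensities may be background. A further list of cytoskeletal and adhesion genes is not reported here. Promoter sequences are from RefSeq, matched by symbol. Alternatives were quantile normalization, median centring, averaging a gene's probe sets, a filter on dim genes, a trended or robust prior, a pseudocount of 16, and each CAR array left out.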

Additional observations from a re-analysis of the deposited data

How the results depend on the processing

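The 10 members kept their direction under every alternative run, and 27 of the 28 other named genes did; Mob1a turned to -0.38 after quantile normalization (adjusted p = 0.301). The count of members called higher stayed at 6 or 7 except with a pseudocount of 16, under which limma called 0 of all genes in either direction (smallest adjusted p = 0.0539; 3151 higher and 2634 lower at an unadjusted p under 0.05), hence 0 members, regulators or targets, against 8, 20 and 10 higher and 1, 2 and 4 lower unadjusted; prior degrees of freedom fell to 1.76. Leaving out a CAR array removes the test; the count of members at least 2-fold higher was then 7 to 8. No paired analysis was possible, because the CAR and PaS cells came from different mice and PaS was a single pooled array. Values below the median of the array labelled PaS limit the folds of Yap1, Tead3, Lats2, Amotl1, Dlg5, Igfbp3, Arhgef17 and Nf2. Values below the medians of the CAR arrays limit the folds of Birc5 and Dock5.

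Quantile normalization gave 2636 genes higher and 2831 lower, against 1706 and 1281, with 1 member (Tead2) and 2 regulators lower; the median was 0.38 for regulators, and ratio shifts 1.15 for Yap1 to Wwtr1, -3.39 for Tead2 to Tead3 and -1.43 for Lats1 to Lats2. Without genes dimmer than the median, 2062 of 9969 genes were called higher and 510 lower, 1 of the latter a regulator. Higher were then 7 of 10 members, 12 of 34 regulators and 9 of 17 targets. The target median was then 1.40, and that of all genes 0.37. That filter keeps genes by a mean over the arrays, 2 of them CAR, and drops Birc5. Before any filter, the quartiles of all genes lay closer together on the array labelled PaS, at 3.16 and 4.52. On the CAR arrays they were 2.86 and 4.82, and 2.73 and 5.01. With centring or a robust prior 1 regulator was lower. With a pseudocount of 16 medians were 1.18 for members and 0.41 for regulators, and ratio shifts 0.13 for Yap1 to Wwtr1, 2.29 for Tead1 to Tead2, 1.60 for Tead1 to Tead4, -1.66 for Tead2 to Tead3, -0.69 for Tead2 to Tead4, 0.97 for Tead3 to Tead4 and -0.18 for Lats1 to Lats2. With the mean of both Tead1 probe sets the shifts were 3.85 for Tead1 to Tead2 and 2.63 for Tead1 to Tead4. The cause of these changes was not tested.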
